A study of Mus musculus with 2 samples.

Results

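The genes described here encode the Fos and Jun families of AP-1 (Fos, Fosb, Fosl1, Fosl2, Jun, Junb and Jund), the related bZIP factor Atf3 and the zinc-finger factors Egr1 and Egr2. They were chosen by symbol, and all 10 were found among the 16190 genes of the count table and passed the filter on low counts. The RNA came, per the labels, from satellite cells of the tibialis anterior muscle of C57BL/6 mice. Satellite cells are the stem cells that lie on myofibres under their basal lamina. The control, called the floxed library here, had the genotype Cipc-flox/flox (titled Cipc+/+), and the other, called the knockout library, had the genotype Cipc-scko (titled Cipc-/-). Cipc encodes CLOCK-interacting pacemaker, a repressor of the circadian activators CLOCK and BMAL1. The series title places the deletion in satellite cells and names mdx mice, but neither sample label gives an mdx genotype. No source used here names the Cre driver, or gives the age or number of animals, the time of day or any culture of the cells. There was 1 library per genotype, so no p-value could be computed, every interval covers counting error only, and each value describes these libraries.

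AP-1 is a dimer that Fos and Jun proteins form through their leucine zippers, and it binds the palindromic TRE motif. Jun proteins can pair with one another, whereas Fos proteins need a Jun or another bZIP partner. Fos, Fosb, Jun, Junb, Atf3, Egr1 and Egr2 are immediate early genes, switched on within minutes of growth factor, stretch or stress signals through factors such as SRF and CREB that are already in the cell. Fosl1, which encodes FRA-1, and Fosl2, which encodes FRA-2, are usually induced later and their products last longer. In muscle, Fos and Jun are known to be induced when satellite cells are activated and when tissue is dissociated.

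Promoter windows of 8 of the 10 genes were matched in RefSeq (GRCm38.p6), and those of 4 are shown over the 150 bases before the RefSeq start, because Fos, Fosb and Fosl2 were the Fos-family genes at least 2-fold higher in the knockout library and Atf3 was not. Of these windows those of Fos, Fosb and Atf3 hold the motif marked and that of Fosl2 does not. Capitals mark TGACG, the core of the cAMP response element to which CREB and ATF proteins bind, on either strand. The windows are chr12:85473740-85473889 on the plus strand (Fos), chr7:19310046-19310195 on the minus strand (Fosb), chr5:32136322-32136471 on the plus strand (Fosl2) and chr1:191183334-191183483 on the minus strand (Atf3).
Fos: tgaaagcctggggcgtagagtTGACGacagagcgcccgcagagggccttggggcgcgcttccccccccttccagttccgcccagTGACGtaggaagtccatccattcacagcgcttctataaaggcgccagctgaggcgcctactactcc
Fosb: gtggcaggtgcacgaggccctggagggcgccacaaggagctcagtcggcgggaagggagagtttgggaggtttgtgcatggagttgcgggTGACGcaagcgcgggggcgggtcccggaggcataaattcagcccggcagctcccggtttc
Fosl2: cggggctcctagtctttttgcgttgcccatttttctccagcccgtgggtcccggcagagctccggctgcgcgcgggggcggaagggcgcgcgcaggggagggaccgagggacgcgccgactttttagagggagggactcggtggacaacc
Atf3: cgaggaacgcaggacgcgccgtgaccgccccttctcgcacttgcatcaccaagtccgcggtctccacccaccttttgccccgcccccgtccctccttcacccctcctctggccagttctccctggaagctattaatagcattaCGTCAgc
Over the full 250 bases before a start, TGACG was found in windows of Fos, Fosb, Junb, Atf3 and Egr2, against 17.8% of 32851 RefSeq windows of the same length. Neither the complete element TGACGTCA (in 1.55% of windows), of which TGACG is part, nor the TRE letters TGANTCA (6.75%) were found in any window of the 8 genes. The EGR letters GCGNGGGCG (4.70% of windows) were found in Fosb and Fosl2, and the CArG box of SRF (1.47%) in 4 of the 5 Egr2 windows. All motifs were searched on both strands. A match is only a match of letters, and the windows of Jun and Jund held none of these motifs.

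The libraries held 16830168 counts (knockout) and 16145870 counts (floxed). Cipc itself stood at 37.0 and 113 CPM (counts scaled by library size and TMM), a log2 ratio of knockout over floxed of -1.61 (95% counting interval -1.74 to -1.47). Xist had 4 counts in the knockout library and 3898 in the floxed library, and the Y-linked gene Ddx3y had 511 and 0, so the sex of the animals runs with genotype and cannot be told apart from it. All 8 myogenic markers passed the filter, with a summed level of 10608 CPM in the knockout library and 3749 CPM in the floxed library. Pax7, the defining satellite cell marker, stood at 62.2 and 2.54 CPM, Myf5 at 66.2 and 61.6 CPM, and the differentiation factor Myog at 2758 and 3.13 CPM. Of markers of other cells, 3 of 6 for smooth muscle and pericytes passed (Acta2, Tagln and Mcam). All 3 were higher in the knockout library (summed 13903 and 550 CPM), while Rgs5, Myh11 and Kcnj8 of the same list had no row. 3 of 7 leukocyte markers passed (summed over rows 6.17 and 47.3 CPM), with Csf1r called higher and Cd68 and Cd14 lower. 5 of 6 fibro-adipogenic markers passed (3031 and 1441 CPM, 2 called higher and 2 lower). So did 1 of 5 endothelial (8.22 and 0.236 CPM) and 1 of 5 Schwann cell markers (1.43 and 2.48 CPM). Of the fibro-adipogenic markers the collagen genes Col1a1 and Col3a1 were higher in the knockout library, whereas Pdgfra (0.685 and 8.68 CPM) and Dcn (0.062 and 8.39 CPM) were lower. Among the markers that had a row only Pecam1 was at 0 counts, in the floxed library, and the leukocyte markers Ptprc, Adgre1 and Itgam had no row among those analysed here. Their part in the values below was not tested, and in bulk RNA fewer cells of a type and less RNA per cell cannot be told apart.

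Calls, here and throughout, needed a ratio of at least 2-fold and a counting interval that excluded equality. Of the 10 genes, 5 were higher in the knockout library (Fosb, Fos, Egr1, Fosl2 and Egr2), 1 was lower (Fosl1), and 4 were not called (Junb, Jun, Jund and Atf3). Over all 12874 genes past the filter, 21.2% were called higher, 15.9% lower and 37.2% in either direction. The median log2 ratio of the 10 genes was 0.98, against 0.01 over all genes. So called genes were common throughout these libraries, and the Fos family held both the 2 highest ratios of the 10 and the lowest.

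**Figure D1:**
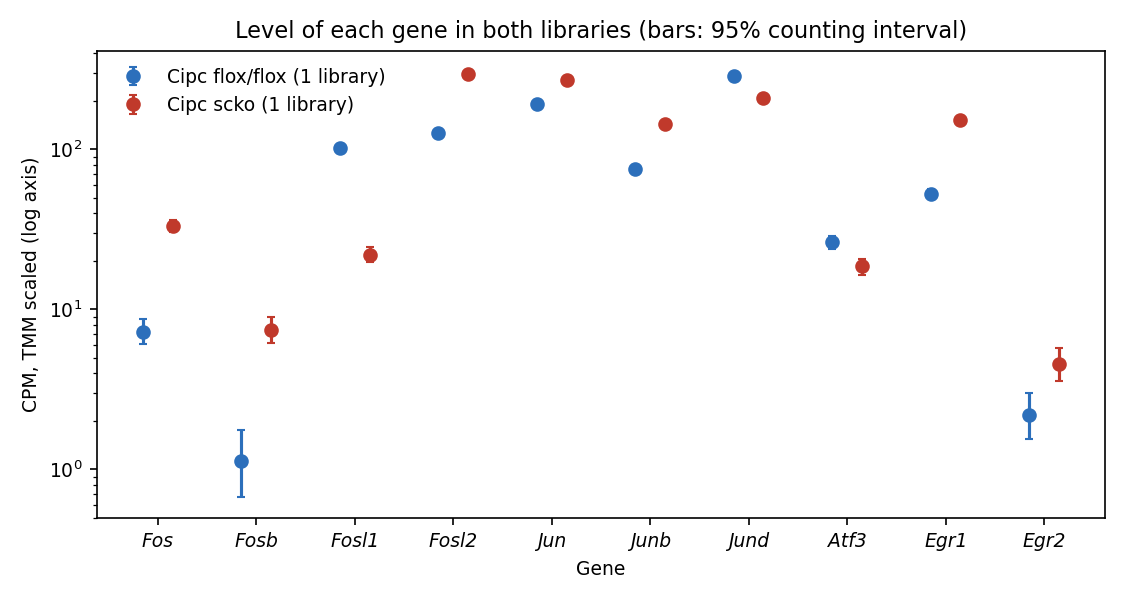
Level of each of the 10 genes in CPM (TMM scaled, log axis) in the floxed library (blue) and the knockout library (red), with 95% counting intervals as bars and 1 library per genotype. Fosl1, Jund and Atf3 lie lower in the knockout library and the other 7 genes lie higher, with Fosl1 at 22.0 CPM against 102 CPM.

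**Figure D2:**
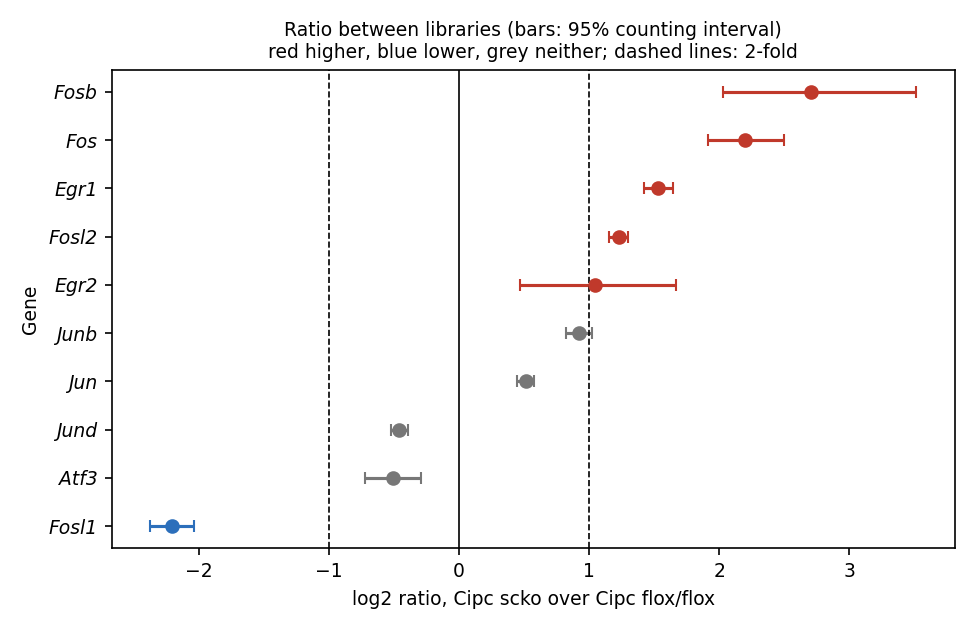
Log2 ratio of knockout over floxed for each gene with its 95% counting interval, ordered by ratio, with dashed lines at 2-fold. The values run from -2.20 (Fosl1) to 2.70 (Fosb), and the intervals of Egr2 and Junb reach across the 2-fold line.

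Fos encodes the founding AP-1 subunit c-Fos (ENSMUSG00000021250, GRCm38 chromosome 12, 85473890 to 85477273). It had 537 counts in the knockout library and 123 in the floxed library, or 33.4 and 7.27 CPM. The knockout level was 4.59-fold the floxed level (3.78 to 5.65), a log2 ratio of 2.20 (1.92 to 2.50), and 11.6% of all genes had a ratio as high or higher. Its close relative Fosb (ENSMUSG00000003545, chromosome 7, 19302696 to 19310051), which encodes FosB and its truncated form, had 120 and 19 counts, or 7.47 and 1.12 CPM. The ratio was 6.51-fold (4.08 to 11.4), log2 2.70 (2.03 to 3.52), the highest of the 10 genes and the least precise of the Fos family. Both were low in the floxed library. The promoters of both, printed above, hold TGACG, as does that of Atf3, and a link of the motif to the ratios was not tested.

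Fosl1 went the other way. This gene, which encodes FRA-1 (ENSMUSG00000024912, chromosome 19, 5447547 to 5455946), had 354 counts in the knockout library and 1719 in the floxed library, or 22.0 and 102 CPM. The level in the knockout library was 4.60-fold lower (4.11 to 5.18), a log2 ratio of -2.20 (-2.37 to -2.04), and 5.84% of all genes had a ratio as low or lower. Fosl1 shares 1163 exon bases with Ccdc85b, a gene on the opposite strand, and no source used here says whether the counting used strand. Ccdc85b had 609 counts in the knockout library and 310 in the floxed library (log2 1.05, 0.85 to 1.25), the reverse of Fosl1. The summed counts of both genes, 963 and 2029, had a log2 ratio of -0.999 (-1.11 to -0.89), which is just short of the 2-fold limit. The sign for the pair was therefore that of Fosl1, at a smaller size.

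Fosl2 encodes FRA-2 (ENSMUSG00000029135, chromosome 5, 32135801 to 32157842). It had 4762 and 2143 counts, the most of the Fos family in both libraries, or 297 CPM in the knockout library and 127 CPM in the floxed library. The ratio was 2.34-fold (2.23 to 2.47), log2 1.23, and 18.5% of all genes had one as high or higher. Fosl1 and Fosl2, both encoding FRA proteins, thus differed in opposite directions.

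Within a library the ratio of one gene to another does not depend on how libraries are scaled. In deposited FPKM, the authors' values per transcript length and depth, Fosl1 was 5.45 times Fosl2 in the floxed library and 0.506 times Fosl2 in the knockout library. The Fosl1 to Fosl2 ratio differed by -3.43 in log2 between libraries (-3.62 to -3.25), a 10.8-fold difference. Fosl1 to Fos was 31.0 in the floxed library and 1.46 in the knockout library (log2 difference -4.41, -4.74 to -4.07), and Fosl1 to Fosb was 199 and 6.48 (-4.94, -5.74 to -4.21). Fosl2 to Fos was 5.69 and 2.90 (-0.97, -1.28 to -0.68), a far smaller shift. These were among 10 pairs computed, chosen after the values were seen.

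The makeup of the Fos family differed accordingly. The summed FPKM of its 4 genes was 76.1 in the floxed library and 47.0 in the knockout library, a log2 ratio of -0.70 that depends on the length used. It was -0.22 per exon union, -0.05 per longest transcript and 0.60 in CPM not divided by length, so no direction is read from the sum. In the floxed library, Fosl1 made up 81.9% of the sum, Fosl2 15%, Fos 2.64% and Fosb 0.412%. In the knockout library, Fosl2 made up 51.8%, Fosl1 26.2%, Fos 17.9% and Fosb 4.04%. The lengths used matter for such shares: the length implied by the deposited FPKM was above the union of annotated exons by more than 1% for 71.3% of 11113 genes, for example 11608 against 9680 bases for Fosl2 and 3792 against 2352 for Fos. With counts per kilobase of exon union, an alternative added after seeing the data, Fosl1 made up 75.3% in the floxed library and Fosl2 53.8% in the knockout library. So the leading gene was the same with either length, while the order of Fosl1 and Fos in the knockout library was not (19.1% and 25.0% per exon union).

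**Figure D3:**
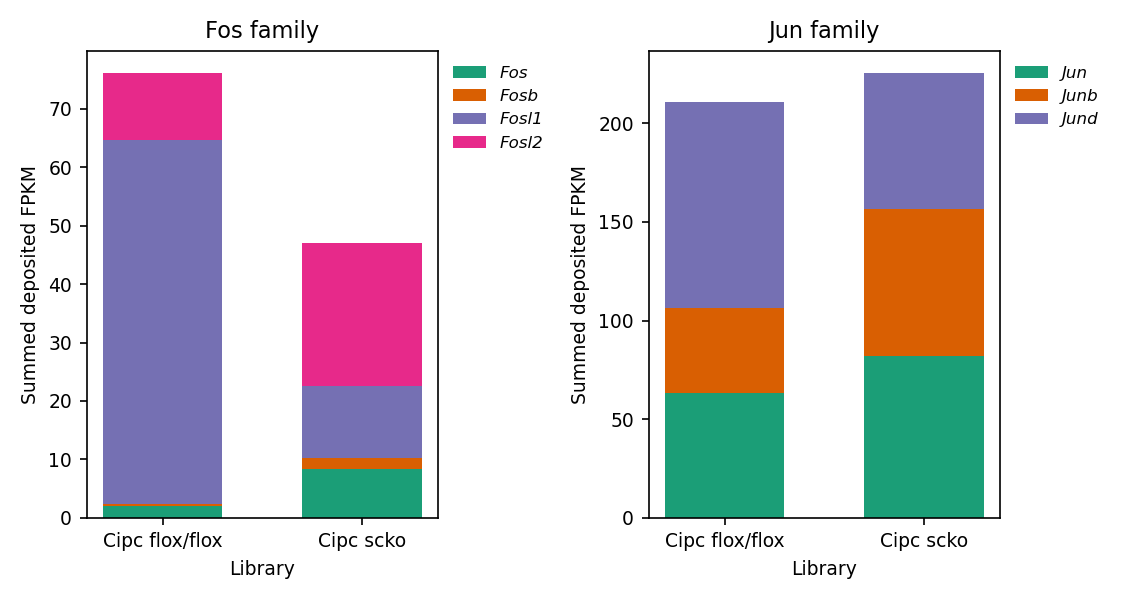
Summed deposited FPKM of the 4 Fos-family genes (left) and the 3 Jun-family genes (right) in each library, 1 bar per library, with the part of each gene in colour. Fosl1 fills 81.9% of the floxed Fos bar and 26.2% of the knockout bar, and the Jun bars reach 211 and 225 FPKM.

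None of the 3 Jun genes was called. Jun (ENSMUSG00000052684, chromosome 4, 95049034 to 95052222), the main partner of Fos, had 4396 counts in the knockout library and 3246 in the floxed library, or 274 and 192 CPM. Its log2 ratio was 0.51 (0.45 to 0.58), or 1.43-fold. Junb (ENSMUSG00000052837, chromosome 8, 84974484 to 84978718), often described as a weaker activator than Jun, had 2307 and 1286 counts, or 144 and 76.0 CPM. Its ratio of 1.89-fold (log2 0.92, 0.82 to 1.02) lay just under the 2-fold limit. Junb shares 173 exon bases with Prdx2 on the opposite strand, which had 5754 and 6369 counts. The summed pair had a log2 ratio of 0.15 (0.11 to 0.20), but most of its counts were Prdx2, so it says little about Junb. Jund (ENSMUSG00000071076, chromosome 8, 70698949 to 70700616), the member known for steady expression in resting cells, had 3347 and 4846 counts, or 208 and 286 CPM, a log2 ratio of -0.46 (-0.52 to -0.39). Jun overlaps the antisense gene Junos and Jund the antisense gene Gm11175, but these had 11 and 15 and 12 and 4 counts, and summing them left the log2 ratios at 0.51 and -0.45.

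The Jun family sum was 225 FPKM in the knockout library and 211 FPKM in the floxed library. The Jun to Fos sum ratio was 4.80 and 2.77 in FPKM but 1.74 and 2.34 in CPM not divided by length, so its direction too depends on the length. Jund made up 49.5% of the sum in the floxed library and 30.6% in the knockout library, Jun 29.9% and 36.3%, and Junb 20.6% and 33.0%. Relative to Jun, Jund was lower in the knockout library by a log2 difference of -0.97 (-1.06 to -0.88), and relative to Junb by -1.38 (-1.50 to -1.26). Per exon union Jund made up 64.8% and 45.7%. It then led in both libraries, whereas in FPKM it was the lowest of the 3 in the knockout library, so which Jun gene was highest there depends on the length.

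Atf3, a stress-induced factor that represses many of its targets (ENSMUSG00000026628, chromosome 1, 191170296 to 191218039), had 298 counts in the knockout library and 447 in the floxed library, or 18.6 and 26.4 CPM. The log2 ratio was -0.51 (-0.73 to -0.29), not a 2-fold difference. It was one of 3 genes of the 10, with Jund and Fosl1, whose level was lower in the knockout library.

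Egr1, a zinc-finger factor of growth factor and stretch responses (ENSMUSG00000038418, chromosome 18), had 2463 counts in the knockout library and 898 in the floxed library, or 153 and 53.1 CPM. The ratio was 2.89-fold (2.68 to 3.12), log2 1.53 (1.42 to 1.64), and 15.7% of all genes had one as high or higher. Egr2, known for its role in Schwann cell myelination (ENSMUSG00000037868, chromosome 10, 67535475 to 67542188), had 73 and 37 counts, or 4.55 and 2.19 CPM. Its log2 ratio of 1.05 (0.47 to 1.67) only just reached the limit. The call was lost under 5 of 7 alternatives, for example with scaling by total counts (0.91). The Schwann cell markers summed to 1.43 and 2.48 CPM, and Sox10 had no row among those analysed here. For the Egr1 to Egr2 ratio the counting interval of the difference between libraries included 0 (log2 difference 0.48, -0.15 to 1.08).

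By level within a library, in FPKM, the floxed order was Jund (104), Jun (63.0), Fosl1 (62.4), Junb (43.3), Fosl2 (11.4), Atf3 (10.8), Egr1 (7.40), Fos (2.01), Egr2 (0.422) and Fosb (0.314). Jun and Fosl1, Fosl2 and Atf3, and Egr2 and Fosb were neighbours whose counting intervals overlapped. In the knockout library the order was Jun (81.9), Junb (74.5), Jund (69.1), Fosl2 (24.4), Egr1 (19.5), Fosl1 (12.3), Fos (8.41), Atf3 (6.91), Fosb (1.90) and Egr2 (0.799), with overlapping intervals for Fos and Atf3 alone. In CPM per kilobase of exon union the floxed order was the same but the knockout order was not. There Jund led, Egr1 (34.2) lay above Fosl2 (30.6), and Fos (14.2) lay above Fosl1 (10.8). In FPKM, Fosl1 went from rank 816 of 12874 genes in the floxed library to rank 3514 in the knockout library, Fos from 8827 to 4637 and Egr1 from 5221 to 2431. Jun, Junb and Jund stayed among the first 1201 genes in both libraries.

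**Figure D4:**
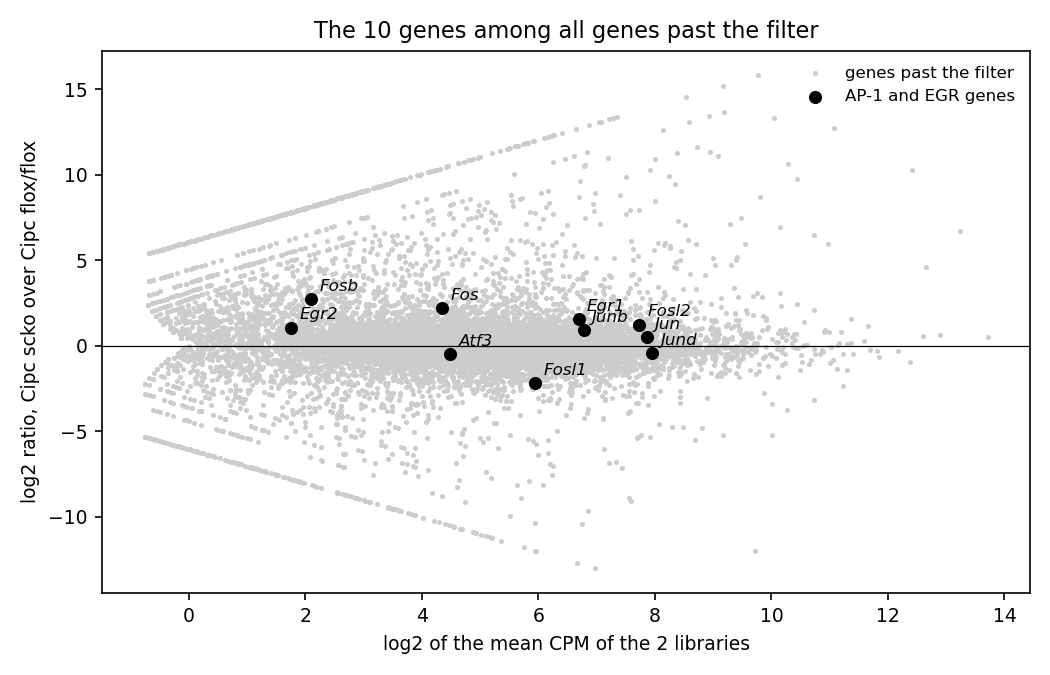
Log2 ratio of knockout over floxed against the log2 of the mean CPM of both libraries for the 12874 genes past the filter (grey) and the 10 AP-1 and EGR genes (black, named). The 10 genes lie between -2.20 and 2.70, inside the spread of the grey points, whose straight upper and lower edges are genes at 0 counts in a library.

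The 10 genes lie on 9 chromosomes, some of which deviated as a whole. The median log2 ratio of genes past the filter was 0.40 on chromosome 7, where Fosb lies, 0.23 on chromosome 4 (Jun), 0.18 on chromosome 8 (Junb and Jund) and -0.35 on chromosome 10 (Egr2), against 0.01 over all 12408 autosomal genes. The Fosb ratio was 2.30 above its chromosome's median, and 2.11 above the median of 38 genes within 1 Mb. Egr2 was 1.39 above its chromosome's median. Fosl1 was 2.13 below the median of chromosome 19, and of 83 genes within 1 Mb of it 15 were called higher and 11 lower. For Fos and Egr1 the chromosome medians were -0.02 and -0.03. For the 6 called genes the chromosome medians were all smaller than the 2-fold limit of a call. Subtracting them could therefore not change a direction, and nothing is concluded from it.

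Other genes of the pathway were described by lists, whose members were chosen with earlier results of these data known. Each list count stands beside the 21.2% called higher and 15.9% called lower over all genes past the filter. Upstream, SRF and the ternary complex factors bind the promoters of Fos and Egr1. Of 6 such genes past the filter 1 was called higher and 2 were called lower, and the median log2 ratio was -0.29. Srf stood at 152 CPM in the knockout library and 67.8 CPM in the floxed library (log2 1.17, 1.06 to 1.27). Elk3, which encodes a ternary complex factor, was lower (62.4 and 161 CPM, -1.37), as was the SRF coactivator gene Mrtfa (54.7 and 120 CPM, -1.14), while Elk1 was not called (0.22). Mrtfa lies on chromosome 15, whose 520 genes had a median of -0.68.

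JNK and p38 kinases phosphorylate Jun, Atf2 and the ternary complex factors. The list of them here also takes in kinases upstream of them (Map2k and Map3k genes). Of its 12 genes past the filter 3 were called higher and 4 lower (median -0.20). Mapk13, which encodes p38 delta, had 222 counts in the knockout library and 0 in the floxed library, at least 78.0-fold higher taking 3 counts as the floor there. Map3k1, a kinase upstream of JNK, differed by 1.87 (1.28 to 2.54). Mapk12 and Mapk11, the genes of p38 gamma and p38 beta, were lower by log2 ratios of -2.41 and -1.98, and both lie on chromosome 15. The main JNK and p38 genes, named here after their values were seen, differed in opposite directions, with Mapk8 at 1.08 (0.90 to 1.27) and Mapk14 at -1.46 (-1.61 to -1.32).

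Some other bZIP factors can pair with Fos or Jun proteins, and the list of them here also takes in further ATF/CREB and Maf factors. Of 16 past the filter 2 were higher and 1 lower, 18.8% in all against 37.2% of all genes, with a median of 0.18. Batf2, an interferon-inducible Jun partner, had 197 counts in the knockout library and 0 in the floxed library, at least 69.2-fold higher. Atf5 stood at 424 and 174 CPM (1.29), Atf7 at 27.8 and 113 CPM (-2.03), and Atf1 at 35.6 and 62.9 CPM (-0.82, not called). Atf7 and Atf1 also lie on chromosome 15. So do Atf4 (0.97), Mafa (0.29) and Maff (-0.72), named here after their values were seen and not called. Of the EGR relatives and corepressors, 3 passed the filter, with 0 higher and 2 lower (median -1.41). Egr3, known for its role in muscle spindles and named here after its values were seen, had 0 counts in the knockout library and 72 in the floxed library, at least 22.8-fold lower. Nab1, which encodes a corepressor of EGR proteins, stood at 24.4 and 65.1 CPM (-1.41), and Nab2 at 91.8 and 141 CPM (-0.61). Egr3 therefore did not share the direction of Egr1 and Egr2.

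Of 36 other immediate early genes, 11 were higher and 8 lower, 52.8% in all against 37.2% of all genes, with a median of 0.21. The orphan nuclear receptor Nr4a3 stood at 17.3 and 0.650 CPM (log2 4.67, 3.87 to 5.75) and the matricellular gene Ccn2 at 364 and 20.3 CPM (4.16). The synaptic immediate early gene Arc, which lies on chromosome 15, had 10 and 187 counts (-4.08), and the zinc-finger factor Klf2 101 and 752 counts (-2.81). Also on chromosome 15, named after their values were seen and not called, were Myc (0.38), Nr4a1 (0.32), Klf10 (-0.16) and Trib1 (-0.56). The members of this list thus went both ways, as called genes did over the whole table. Dusp1, which encodes a phosphatase of JNK and p38, and the early gene Ier2, both named after their values were seen, differed by -1.92 and 1.03.

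Transcripts of Fos and other early genes are short-lived through AU-rich elements. Of 8 genes for proteins that bind these elements 1 was higher and 1 lower (median -0.06). Zfp36l1 stood at 142 and 25.3 CPM (2.48) and Zfp36l2 at 93.1 and 204 CPM (-1.13), both decay factors, while Zfp36 (0.73) and Khsrp (-0.44) were not called. Of 6 genes for JUN turnover and coactivation 0 were called, with log2 ratios from -0.33 (Itch, a JUN ubiquitin ligase) to 0.74 (Det1). Fbxw7 (0.51) and Cops5 (-0.16) lay between.

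Of 18 genes commonly cited as AP-1 targets, 3 were higher and 11 lower, 77.8% in all against 37.2% of all genes. Their median was -1.45. Mmp10, a matrix metalloprotease gene, had 0 counts in the knockout library and 714 in the floxed library, at least 226-fold lower, and the membrane linker gene Ezr stood at 11.0 and 421 CPM (-5.25). In the other direction Il6, a cytokine gene, had 151 and 0 counts, at least 53.1-fold higher. The dependence of these genes on AP-1 was not tested. Heat shock genes, often listed with Fos and Jun in dissociated muscle cells, had 1 of 13 higher and 6 lower (median -0.73). Hsp90aa1 stood at 140 and 467 CPM (-1.74) and Hspb1 at 292 and 836 CPM (-1.52), while the endoplasmic reticulum chaperone gene Hspa5 was not called (0.95). Hspa1a differed by 2.37, but with its near-identical copy Hspa1b the summed counts were 497 and 827 (-0.66), so the separate values are uncertain.

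**Figure D5:**
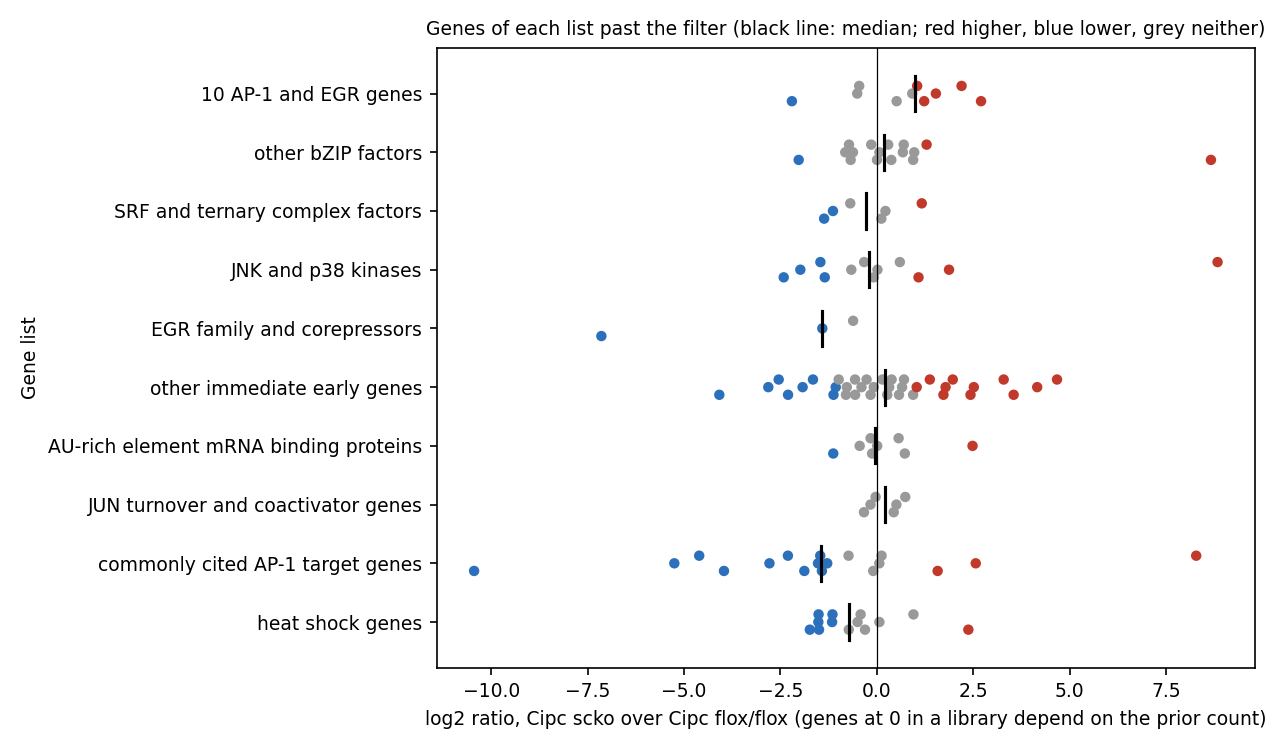
Log2 ratio of knockout over floxed for each gene past the filter in each list, with the median as a black line and called genes in red (higher) or blue (lower). The 10 AP-1 and EGR genes have a median of 0.98 and the AP-1 target list one of -1.45, and genes at 0 counts in a library have ratios that depend on the prior count.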

How the data were processed

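RNA-seq of 2 libraries, 1 per genotype, was used. Counts of reads per gene, as whole numbers with Ensembl identifiers, were deposited by the authors in 1 table, and FPKM in a file for each library, per the file headers. Builds and tools in the submitters' processing notes are GRCm38, StringTie 1.3.0, HISAT2 2.0.4 and CASAVA, with no roles stated. No source used here gives the counting tool, strand setting or annotation release. The deposited FPKM are the counts rescaled (ratio of ratios 0.9996 to 1.0002 over 13719 genes), so they served for levels between genes only. Symbols of 16116 of 16190 genes and positions came from GENCODE vM21 on GRCm38, and promoters from RefSeq. The members and lists were chosen with earlier results of these data known.

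Counts were scaled with TMM (edgeR 4.0.16, R 4.3.3). The filter kept genes that reached 1 CPM in either library and 20 counts over both. Log2 ratios used a prior count of 0.5, and intervals are exact binomial (Clopper-Pearson) at 95%, or exact Poisson for a level and the exact conditional odds ratio for gene pairs. Intervals cover counting error only, since there was 1 library per genotype. PCR copies of a molecule cannot be recognised, and the intervals make no allowance for them. Named were Cipc, the 10 genes and, per list, the 2 genes with the highest and the 2 with the lowest ratio that reached 5 CPM in either library, of which 1 is not reported here. Near-identical copies of the 10 genes were sought with BLAST+ 2.17.0 at 95% identity over 80% of the shorter transcript. The only match was Gm11175 for Jund. This antisense gene shares 877 exon bases with Jund at the same locus, so it is no separate copy. The call rule was tested on simulated data. Alternatives were other scalings (DESeq2 1.42.0 size factors among them), priors, filters, limits and lengths.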

Additional observations from a re-analysis of the deposited data

How the results depend on the processing

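All 10 genes kept the sign of their log2 ratio under the 7 alternatives of scaling, prior count and unit, and the call changed for Egr2 alone. A change of scaling shifts all genes by nearly the same amount, which was smaller than any of the 10 ratios. A larger prior or pseudocount only shrinks ratios. The signs could therefore not change, and nothing is concluded from them. The deposited FPKM, being rescaled counts, repeat scaling by total counts. The Egr2 ratio was 0.91 with total counts, 0.97 with totals that leave out mitochondrial genes and the 10 genes with most counts, 0.96 with a prior count of 5, 0.78 with FPKM and a pseudocount of 0.1, and 0.34 with a pseudocount of 1. Scaling by total counts moved the median of all genes from 0.01 to -0.13, and gave 1.09 for Fosl2, 0.38 for Jun, 0.78 for Junb, -0.59 for Jund and 1.40 for Egr1. Totals without mitochondrial and top genes gave 1.15 for Fosl2, 0.43 for Jun and -0.54 for Jund. FPKM with a pseudocount of 0.1 gave 1.09 for Fosl2, 0.38 for Jun, 0.78 for Junb, -0.59 for Jund and 1.38 for Egr1. A pseudocount of 1, which understates low genes, gave 1.65 for Fos, 1.14 for Fosb, 1.03 for Fosl2, 0.37 for Jun, 0.77 for Junb, -0.59 for Jund and 1.29 for Egr1. Of sums with overlapping genes, added after seeing the data, that of Fosl1 with Ccdc85b gave -0.999, short of a call. That of Junb with Prdx2 gave 0.15, but 5754 of its 8061 and 6369 of its 7655 counts were Prdx2, so it is no estimate for Junb.

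A fold limit of 4 called 3 of the 10 genes (Fos and Fosb higher, Fosl1 lower) instead of 6. In either direction it called 0 SRF and ternary complex genes, 2 genes of the JNK and p38 list, 1 EGR relative and 10 other immediate early genes. It also called 1 AU-rich element gene, 8 AP-1 targets and 1 heat shock gene. A limit of 1.5 called 11 other bZIP genes and 1 JUN turnover gene, and a CPM of 5 left 1 EGR relative called; such limits set by themselves how many genes pass. Of all 12874 genes, 1479 were higher with FPKM and a pseudocount of 1 and 1608 with a fold limit of 4, against 2732. The share of all genes called in either direction at a fold limit of 4 is not given here. The list counts at that limit are therefore not read against it. The Fosl1 share of the Fos family in the knockout library was 15.8% per longest transcript, 19.1% per exon union and 6.13% of raw counts, and in the floxed library 70.2%, 75.3% and 42.9%. The Jund share was 43.1%, 45.7% and 33.3% in the knockout library and 62.7%, 64.8% and 51.7% in the floxed library. Raw counts ignore length, and Fosl2 then leads in both libraries. In sums not divided by length, also added after seeing the data, the log2 ratio of the Fos family turned from -0.70 to 0.60 and that of the Jun to Fos ratio from 0.79 to -0.43. No paired analysis was possible because each genotype has 1 library, and no library could be left out. Depth limits Egr2 and Fosb most, at 37 and 19 counts in the floxed library.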
